A study of Mus musculus with 4 samples.

Results

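The kinase genes of striated muscle described here are 9 rows of a table of expected counts, picked by gene symbol from 51826 rows: the SBK genes Sbk1, Sbk2 and Sbk3, the SPEG gene Speg, the myosin light chain kinase genes Mylk2, Mylk3 and Mylk4, and the alpha kinase genes Alpk2 and Alpk3. All 9 had counts high enough to be tested. RNA came from the quadriceps of 4 sedentary male mice of about 20 weeks of age in the C57BL6/J background, kept on standard chow. The groups were 2 WT littermates and 2 Mef2dα2 Eko mice (Eko below), the latter homozygous for a CRISPR-Cas9 deletion of the α2 exon of Mef2d, which is missing from every tissue and not from muscle alone. The founder line of the sequenced mice is not given in the sources used here. PolyA RNA of each mouse gave 1 library, and the comparison asks which transcripts of muscle depend on the muscle-specific exon of the transcription factor MEF2D.

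Myosin light chain kinases are switched on by calcium and calmodulin and phosphorylate the regulatory light chain of myosin, which tunes the force of contraction. Mylk2 encodes the skeletal muscle enzyme, Mylk3 the cardiac enzyme, and Mylk4 a less studied relative. SPEG, a large protein with a pair of kinase domains, is needed for the triads at which calcium is released. ALPK3 belongs to the atypical alpha kinases and is needed for normal heart and skeletal muscle, and ALPK2 is its relative. The SBK proteins are serine/threonine kinases named for an SH3-binding domain. MEF2 proteins bind an A/T-rich element that stands in the control regions of many muscle genes.

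Each library held 72626757 to 85176059 expected counts. The α2 exon cannot be checked at the level of genes, and Mef2d as a whole was at 259 and 227 CPM (a count scaled to the total of its library) in WT against 252 and 241 CPM in Eko mice. Markers of skeletal muscle were high in every library, with 6 genes that together gave 112004 to 117632 CPM. WT replicate 1 stood apart: in chi-square tests of counts over genes, the statistic divided by its degrees of freedom was 90.8 to 164 between it and the other libraries and 27.4 to 32.3 among those, and genes of the mitochondrial genome gave 20.7% of its counts against 15.8% to 17.4% elsewhere. The difference of each of the 9 genes is therefore also given without that mouse. For other genes such values are not given singly. Replicates were separate mice, and 2 mice against 2 cannot give a p below 0.333 in an exact permutation test, so calls rest on a model that shares the spread among genes.

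RefSeq promoter sequences of the GRCm38.p6 build were used for 6 of the 9 genes, in 10 windows. Each window runs from 250 bases before a transcription start to 50 bases after it. No window was found for Sbk1 and Mylk2, and Alpk2 was left out of the search. A match to the MEF2 consensus of 10 letters, on either strand, was found in 3 of the 10 windows, against 3.19% of all 32817 windows. These were the most upstream of the 4 windows of Speg and the windows of Mylk4 and Alpk3. Sbk2 is shown beside them because it was the kinase gene with the largest difference between genotypes. Each sequence is written 5′ to 3′ on the strand of the gene, and capitals mark the MEF2 match.

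Speg, chr1:75375047-75375346, plus strand: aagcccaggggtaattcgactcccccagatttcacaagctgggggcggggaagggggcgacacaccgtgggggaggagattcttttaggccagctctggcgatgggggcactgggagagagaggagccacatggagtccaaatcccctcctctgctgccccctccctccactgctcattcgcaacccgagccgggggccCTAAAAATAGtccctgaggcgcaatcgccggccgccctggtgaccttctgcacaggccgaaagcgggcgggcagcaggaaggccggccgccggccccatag

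Mylk4, chr13:32783915-32784214, minus strand: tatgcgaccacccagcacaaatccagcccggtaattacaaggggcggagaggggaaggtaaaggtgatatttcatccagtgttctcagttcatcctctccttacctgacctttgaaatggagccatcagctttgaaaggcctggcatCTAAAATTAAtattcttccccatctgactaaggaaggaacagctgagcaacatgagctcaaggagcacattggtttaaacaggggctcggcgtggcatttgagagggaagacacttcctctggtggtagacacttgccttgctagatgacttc

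Alpk3, chr7:81057350-81057649, plus strand: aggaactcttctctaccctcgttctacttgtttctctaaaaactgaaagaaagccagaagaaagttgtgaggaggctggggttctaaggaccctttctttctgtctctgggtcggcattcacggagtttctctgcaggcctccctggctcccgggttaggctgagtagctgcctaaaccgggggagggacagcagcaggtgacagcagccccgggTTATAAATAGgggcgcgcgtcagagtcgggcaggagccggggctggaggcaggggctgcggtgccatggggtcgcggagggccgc

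Sbk2, chr7:4964357-4964656, minus strand: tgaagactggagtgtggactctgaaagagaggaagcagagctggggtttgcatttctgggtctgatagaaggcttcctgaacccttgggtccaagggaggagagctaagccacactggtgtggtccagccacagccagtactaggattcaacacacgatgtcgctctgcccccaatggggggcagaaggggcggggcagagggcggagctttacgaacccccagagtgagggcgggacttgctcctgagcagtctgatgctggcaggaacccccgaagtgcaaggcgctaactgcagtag

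With the start site counted as 0, the match of Speg ran from -51 to -42, that of Mylk4 from -103 to -94 and that of Alpk3 from -35 to -26. The letters of Alpk3 also hold TATAAA, a form of the TATA box that stands in 13.6% of all windows, so that match is a match to both. The E-box CANNTG, which myogenic bHLH factors bind, was present in the 3 windows with a MEF2 match and in 72.3% of all windows. MCAT (CATTCC) was absent from them and stood in 14.7% of all windows, and no window of the 6 genes held a CArG box, which stood in 1.63%. The window of Sbk2 held no match to the MEF2 consensus, E-box, MCAT, CArG box or TATAAA. These are matches of letters, and no binding was measured in these data.

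By level per length, the kinase genes ranged from rank 77 (Mylk4) to rank 11397 (Sbk3) among 15593 genes with a length. Levels are given in CPM scaled by TMM normalization, and, to compare genes, in CPM per kb of exon in GENCODE release M21. Mylk4 was highest, at 283 to 391 CPM per kb in the 4 mice. Mylk2 followed at 245 to 335 CPM per kb (rank 87), and its range overlapped that of Mylk4. Alpk3 was at 45.2 to 48.3 CPM per kb and Speg at 36.3 to 39.8 CPM per kb, without overlap. Sbk2 lay below them at 17.0 to 31.3 CPM per kb, Alpk2 at 11.3 to 13.3 and Sbk1 at 5.98 to 7.18, again without overlap between neighbours in the order. Mylk3 and Sbk3 were lowest, at 0.251 to 0.612 and 0.111 to 0.634 CPM per kb, and could not be ordered. The mean level of Mylk3 per length was 16.2-fold below that of Sbk1, the widest gap in the order.

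**Figure D1:**
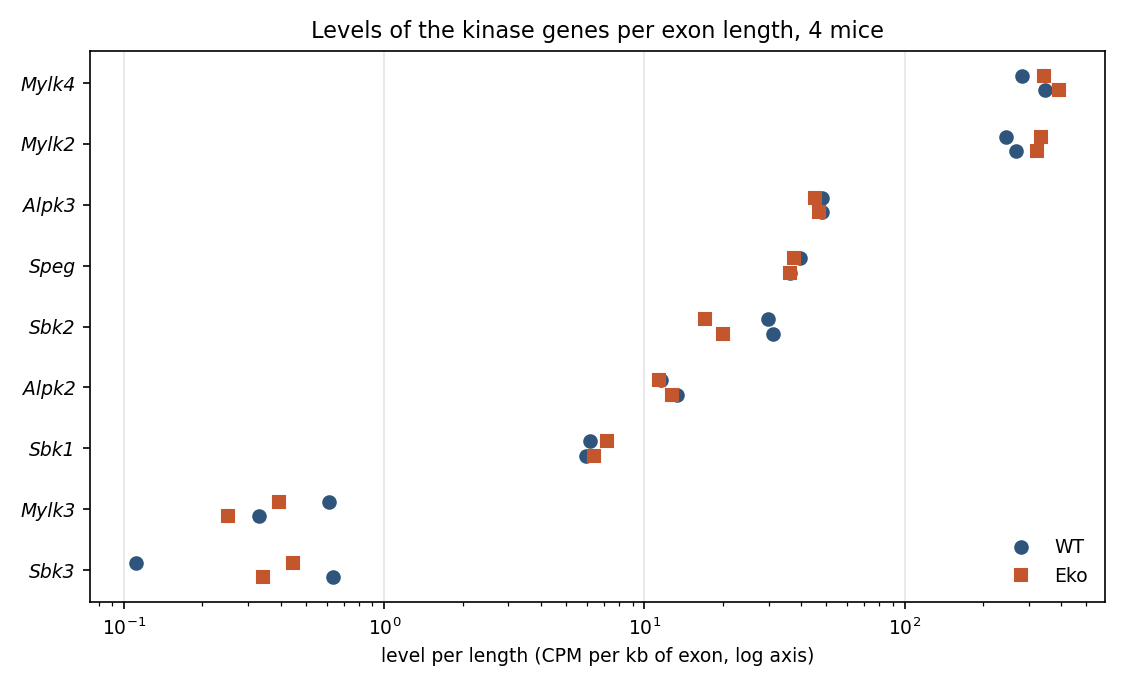
Level of each kinase gene per exon length (x axis, CPM per kb of exon, log axis) in the WT mice (circles) and the Eko mice (squares), genes ordered by mean level. Mylk4 and Mylk2 stand above 240 CPM per kb in every mouse, and Mylk3 and Sbk3 below 1 CPM per kb.

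Within each family, the level per length was spread unevenly over the genes. Among the myosin light chain kinases of this group, Mylk4 gave 50.7% to 56.3% and Mylk2 43.6% to 49.3%, whereas the cardiac gene Mylk3 gave at most 0.116%. Alpk3 gave 78.4% to 80.6% of the alpha kinase pair in all 4 mice, and the ratio of Alpk3 to Alpk2 per kb stayed between 3.63 and 4.17. Among the SBK genes, Sbk2 gave 82.6% in each WT mouse and 69.1% and 74.9% in the Eko mice, with most of the remainder from Sbk1. The smooth muscle gene Mylk, which is not among the 9, was 159-fold to 196-fold below Mylk2 per kb.

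The genotypes were compared with edgeR's quasi-likelihood test over 16120 genes with Benjamini-Hochberg adjustment. Because the 9 genes were picked with results of this same contrast known, their differences are given as a description, with a standard error and no p. Of the 9 genes, 1 had an adjusted p below 0.05 (Sbk2, lower in Eko mice), where 0.416% of all genes tested did so and 0.310% did so with a lower level. The mice of the genotypes did not overlap for 4 of the 9, as for 43.8% of all genes tested. Sbk2 and Alpk3 had both Eko values below both WT values, as had 23.0% of all genes tested, and Mylk2 and Sbk1 had both above, as had 20.8%. The median log2 fold change was -0.04 over the 9 genes and -0.01 over all genes tested, and the median absolute log2 fold change was 0.16 and 0.14.

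**Figure D2:**
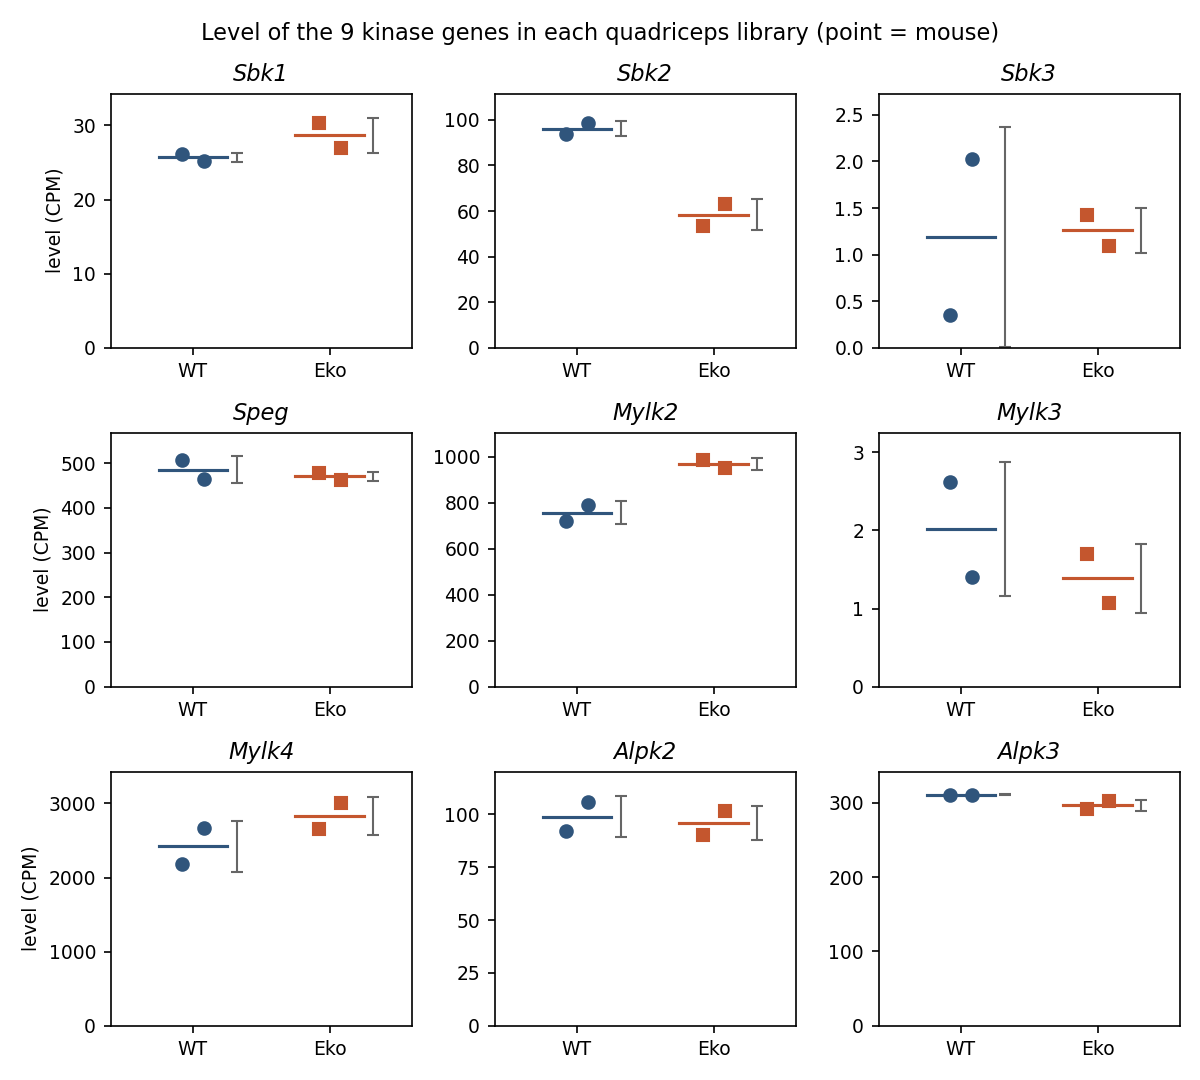
Level of each of the 9 kinase genes (y axis, CPM, from 0, a separate scale per gene) in the 2 WT mice (circles) and the 2 Eko mice (squares), with the mean as a line and the SD as a bar beside it. The Sbk2 points of the Eko mice, at 53.6 and 63.2 CPM, lie below those of WT at 93.8 and 98.5 CPM, and the Sbk3 points of WT span 0.356 to 2.03 CPM.

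Sbk2 (ENSMUSG00000030433.15) occupies bases 4940512 to 4964406 of chromosome 7 (GRCm38, minus strand). It had 7116 and 7967 counts in WT against 4624 and 4518 counts in Eko mice. The Eko values stood well under the WT values, and the difference was larger than the spread within either genotype. In CPM, WT stood at 96.1 ± 3.35 and Eko at 58.4 ± 6.74 (SD, n = 2 each), so Eko reached 60.7% of WT. The log2 fold change was -0.72 (standard error 0.09) and ranked 933 by size among the 16120 genes. It was -0.75 without WT replicate 1, and between -0.84 and -0.59 with any 1 mouse left out. The adjusted p lay close under the threshold, and the call was lost under a stricter filter (at least 1 CPM in 2 libraries).

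Neither of the nearest tested genes beside Sbk2 passed the threshold. Sbk3 lies upstream on the same strand, its 3′ end 0.854 kb from Sbk2, and its values are given below. Ssc5d, a secreted scavenger receptor gene on the other strand, overlaps the end of Sbk2 without a shared exon base, and was at 9.22 and 9.25 CPM in WT against 10.9 and 7.09 CPM in Eko mice, a log2 fold change of -0.03. The next gene beyond Sbk3, Zfp579, was at 10.6 and 8.79 CPM in WT against 8.15 and 7.09 CPM in Eko mice, with a log2 fold change of -0.35 (standard error 0.13), and did not pass the threshold. No stretch of 75 bases in the transcripts of Sbk2 occurred in a transcript of another gene, Sbk1 and Sbk3 included.

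Several cell type and fibre markers differed between the libraries beside Sbk2. The 6 adipocyte markers summed to 81.6 and 31.5 CPM in WT against 26.5 and 11.5 CPM in Eko mice, and none was at 0 in all libraries. Of these sums, Cfd alone gave 48.5 and 16.9 CPM in WT against 8.61 and 5.72 CPM in Eko mice. Adipoq, Plin1, Lep and Cidec overlapped between genotypes, and Lep was highest in Eko replicate 1, at 4.43 CPM. The 4 macrophage markers summed to 17.2 and 13.1 CPM in WT against 13.3 and 9.05 CPM in Eko mice, so these sums overlapped. Sums of the 8 slow fibre markers overlapped between genotypes, at 422 and 924 CPM in WT against 618 and 398 CPM in Eko mice, although Myoz2, a calsarcin of slow fibres, was at 39.3 and 39.7 CPM in WT against 28.7 and 21.0 CPM in Eko mice. The 10 fast fibre markers summed to 122223 and 125730 CPM in WT against 125907 and 131024 CPM in Eko mice. Both Eko values were above both WT values for 4 of them (20.8% of all genes tested) and below for 3 (23.0%). Myh2, the type IIa myosin, was at 1576 and 1709 CPM in WT against 1264 and 1041 CPM in Eko mice. Myh4, the type IIb myosin, was at 64359 and 64361 CPM in WT against 65461 and 69587 CPM in Eko mice. In edgeR no marker of these lists passed the threshold, although 4 adipocyte, 2 macrophage, 1 slow and 2 fast fibre markers had an unadjusted p below 0.05, as had 11.6% of all genes tested. DESeq2, which called 284 genes in all, called Myoz2, Myh1 and Myh2 of them, and limma-voom called none. Of the 6 skeletal muscle markers, DESeq2 called Mb, the myoglobin gene, which was at 1430 and 1303 CPM in WT against 1050 and 884 CPM in Eko mice and did not pass in edgeR. The part of these markers in the difference of Sbk2 was not tested, and in bulk RNA fewer cells or fibres of a type and less RNA per cell cannot be told apart.

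The 3 genes whose levels over the 4 libraries were most like Sbk2, by the root mean square difference of log2 CPM centred on each gene, were Ccdc142os (0.033), Itga2b (0.035) and Proscos (0.040). All are low in this muscle, at 0.599 CPM, 0.516 CPM and 2.20 CPM on average in WT, and none of the 3 passed the threshold.

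Sbk1 (ENSMUSG00000042978.10, chromosome 7 from 126272619 to 126295016, plus strand) was at 26.1 and 25.3 CPM in WT against 30.3 and 27.0 CPM in Eko mice. Both Eko values lay above both WT values, but the lower Eko value was closer to WT than to the other Eko value. The log2 fold change was 0.16 (standard error 0.08), and 0.18 without WT replicate 1. The ratio of Sbk2 to Sbk1 per kb was 4.82 and 5.24 in WT against 2.37 and 3.14 in Eko mice. Sbk1 thus took a larger part of the SBK transcripts per length in Eko mice, 29.1% and 23.8% against 17.1% and 15.8%.

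Sbk3 (ENSMUSG00000085272.7, chromosome 7 from 4965260 to 4971168, minus strand) had 27 and 164 counts in WT against 123 and 78 counts in Eko mice. The WT mice were the lowest and the highest of the 4, at 0.356 and 2.03 CPM, with 1.43 and 1.09 CPM in the Eko mice between them. Its log2 fold change of 0.08 (standard error 0.66) turned to -0.68 without WT replicate 1 and reached 1.84 without WT replicate 2, so no direction can be given. Its order over the libraries was that of 4 of the 8 slow fibre markers (Myh7, Tnnt1, Tnni1 and Tnnc1), an order that 3.19% of all genes tested had. The slow fibre markers Myl2, Myl3, Atp2a2 and Myoz2 were instead lowest in Eko replicate 2. Myh7, the slow myosin, was at 113 and 339 CPM in WT against 237 and 145 CPM in Eko mice, so WT replicate 1 was lowest for both genes. There were 3.15 to 7.51 Sbk3 counts per 1000 Myh7 counts, lowest in WT replicate 1. The part of fibre content in the spread of Sbk3 was not tested.

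Mylk2 (ENSMUSG00000027470.9) lies on chromosome 2 from 152911352 to 152923068 on the plus strand. It had 54829 and 64100 counts in WT against 85186 and 67939 counts in Eko mice, or 723 and 793 CPM against 988 and 950 CPM. Eko values were above WT values by more than the spread within a genotype. The mean was 758 ± 49.6 CPM for WT against 969 ± 27.0 CPM for Eko (SD, n = 2 each), with a log2 fold change of 0.36 (standard error 0.08) that was 0.29 without WT replicate 1. Mylk2 did not pass the threshold over all genes in edgeR's quasi-likelihood test. It passed in DESeq2, and in edgeR when either the filter on low counts or WT replicate 2 was left out.

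Mylk4 (ENSMUSG00000044951.15, chromosome 13 from 32700834 to 32783954, minus strand) gave 55.4% to 61.2% of the summed CPM of the 9 genes. It was at 2177 and 2664 CPM in WT against 2650 and 3008 CPM in Eko mice. The ranges overlapped, since WT replicate 2 was slightly above Eko replicate 1. Its log2 fold change was 0.22 (standard error 0.12) and was 0.09 without WT replicate 1, the lowest of the mice. The ratio of Mylk4 to Mylk2 per kb was 1.16 and 1.29 in WT against 1.03 and 1.22 in Eko mice.

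Mylk3 (ENSMUSG00000031698.14, chromosome 8 from 85324303 to 85386345, minus strand), the cardiac gene, had 199 and 114 counts in WT against 146 and 77 counts in Eko mice. Its levels of 2.62 and 1.41 CPM in WT overlapped with 1.69 and 1.08 CPM in Eko mice. The log2 fold change of -0.53 (standard error 0.35) was -0.02 without WT replicate 1. Of heart muscle genes, 5 of the 8 heart markers with any count (Nppa, Myh6, Tnnt2, Tnni3 and Nkx2-5) had its order over the libraries, as 5.26% of all genes tested did. Myh6, the alpha myosin of heart, was at 106 and 52.4 CPM in WT against 58.9 and 41.7 CPM in Eko mice, and there were 24.6 to 28.8 Mylk3 counts per 1000 Myh6 counts in the 4 libraries. Mylk3 counts per 1000 Tnni3 counts were likewise between 335 and 386. The 9 heart markers summed to 131 and 67.0 CPM in WT against 75.3 and 53.6 CPM in Eko mice, and Myl7, an atrial light chain, was at 0 in every library. The source of these heart transcripts was not tested.

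**Figure D3:**
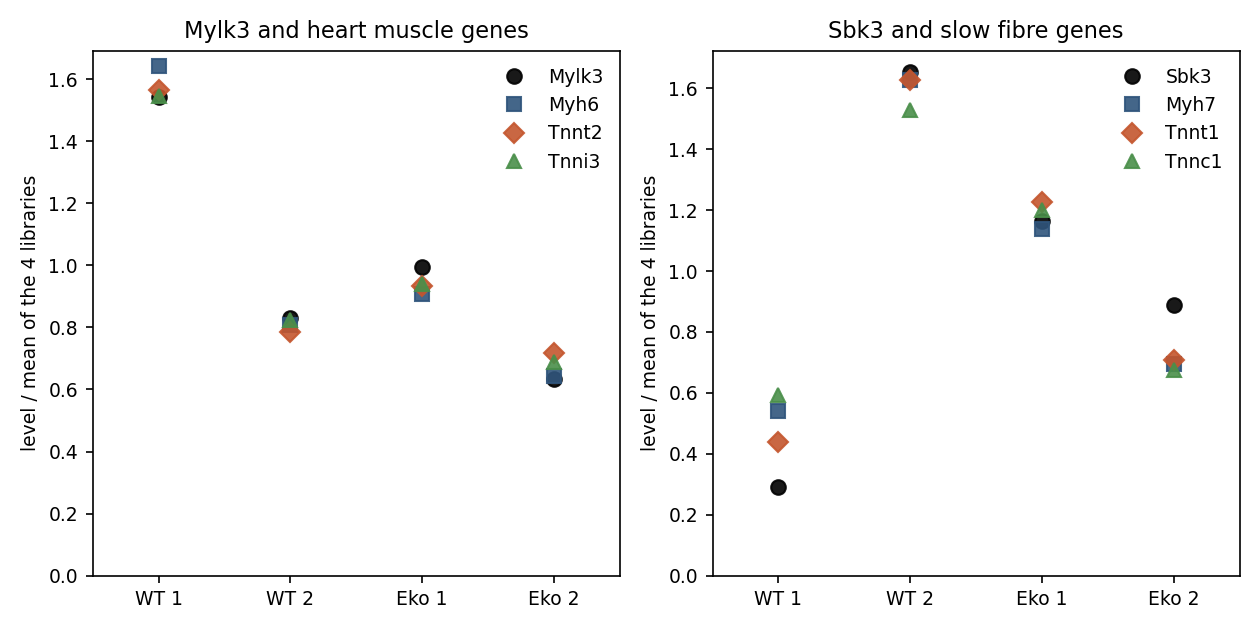
Level of Mylk3 beside the heart muscle genes Myh6, Tnnt2 and Tnni3 (left) and of Sbk3 beside the slow fibre genes Myh7, Tnnt1 and Tnnc1 (right) in each library, each divided by its own mean over the 4 libraries (y axis, from 0). Mylk3 and its 3 markers are highest in WT 1 and lowest in Eko 2, and Sbk3 and its 3 markers are highest in WT 2 and lowest in WT 1. The markers shown were picked from those with the order of the kinase gene. That order was shared by 5 of 8 heart markers with any count for Mylk3 and by 4 of 8 slow fibre markers for Sbk3.

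Speg (ENSMUSG00000026207.16) occupies bases 75375297 to 75432320 of chromosome 1 (plus strand). Its 8 coding transcripts are not separated by counts per gene. It was at 507 and 464 CPM in WT against 478 and 462 CPM in Eko mice. These values overlapped, with a log2 fold change of -0.05 (standard error 0.07) that became 0.02 without WT replicate 1.

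Alpk3 (ENSMUSG00000038763.12, chromosome 7 from 81057600 to 81105612, plus strand) varied least, at 310 and 311 CPM in WT against 291 and 302 CPM in Eko mice. Eko values were under WT values, at 95.5% of the WT mean, with a log2 fold change of -0.07 (standard error 0.06) and the same value without WT replicate 1. The nearest tested gene on the side of higher coordinates, Pde8a, a cyclic nucleotide phosphodiesterase gene 108 kb away, passed the threshold with 13.8 and 11.4 CPM in WT against 5.87 and 6.70 CPM in Eko mice (log2 fold change -1.01, standard error 0.13). The nearest gene on the other side, Zfp592, had a log2 fold change of 0.02. Beside the other kinase genes, the nearest tested genes did not pass the threshold, except that Sbk2 is itself the neighbour of Sbk3.

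Alpk2 (ENSMUSG00000032845.16, chromosome 18 from 65265529 to 65394066, minus strand) was at 92.0 and 106 CPM in WT against 90.3 and 102 CPM in Eko mice. The ranges largely overlapped, and the log2 fold change was -0.04 (standard error 0.10), or -0.14 without WT replicate 1. Antisense genes share 1158 and 286 exon bases with Alpk2, and 15.0% of the stretches of 75 bases in its transcripts occurred in a transcript of another gene. Its counts could therefore depend on the strand setting of the counting, which is not given in the sources used here. The corresponding share was 0.182% for Mylk4 and 0 for the other 7 genes.

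**Figure D4:**
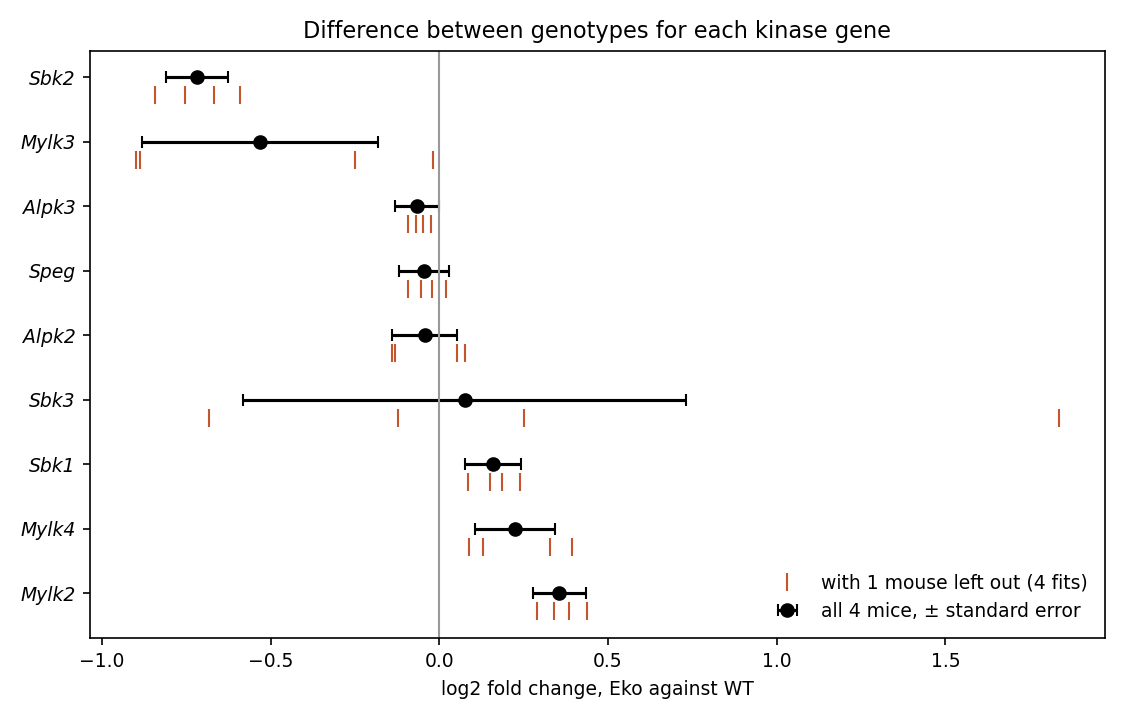
Log2 fold change of each kinase gene (x axis, Eko against WT) with all 4 mice (point, bar = standard error) and in the 4 fits that left out 1 mouse each (ticks). All ticks of Sbk2 lie between -0.84 and -0.59, and those of Sbk3 run from -0.68 to 1.84.

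Genes that work with these kinases were read from lists of related genes. Among relatives of the kinases, 11 of 12 had a row and were tested, and 0 passed the threshold in edgeR's quasi-likelihood test, where 2 (Mylk and Dapk1) had an unadjusted p below 0.05 (11.6% of all genes tested), and 0 passed in DESeq2 and in limma-voom. Their median log2 fold change was 0.09, with the largest change in Dapk1, a death-associated protein kinase, at 3.69 and 3.59 CPM in WT against 1.77 and 2.35 CPM in Eko mice. Ttn, the giant titin with a kinase domain of its own, was the highest of them per length, at 18810 and 21229 CPM in WT against 22486 and 24227 CPM in Eko mice (log2 fold change 0.22, standard error 0.10).

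A further list held 16 genes for myosin light chains, myosin phosphatase and calmodulin, the substrates, opponents and activators of the MYLK enzymes. Of these, 0 passed in edgeR's quasi-likelihood test, in DESeq2 or in limma-voom. In edgeR 0 had an unadjusted p below 0.05, against 11.6% of all genes tested. Myl1, a fast essential light chain, was the highest per length, at 5728 and 5719 CPM in WT against 5419 and 5335 CPM in Eko mice. Myl4, an embryonic and atrial light chain, had the largest log2 fold change, 0.60 (standard error 0.28), at 1.54 and 0.915 CPM in WT against 1.86 and 1.87 CPM in Eko mice. Mylpf, the fast regulatory light chain that MYLK2 phosphorylates, was at 2270 and 2404 CPM in WT against 2610 and 2456 CPM in Eko mice, and is named after its values were seen. The ratio of Mylk2 to Mylpf per kb was 0.115 and 0.119 in WT against 0.136 and 0.139 in Eko mice.

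Of 15 partners of SPEG and ALPK3 at the triad and M-band, 0 passed in edgeR's quasi-likelihood test, DESeq2 or limma-voom, and 1 (Myom3) had an unadjusted p below 0.05 in edgeR, against 11.6% of all genes tested. Myom3, a myomesin of the M-band, was at 38.0 and 37.0 CPM in WT against 31.2 and 17.2 CPM in Eko mice, the largest difference of the list (log2 fold change -0.63, standard error 0.24). Atp2a1, the calcium pump of fast fibres, was the highest per length, at 21379 and 23265 CPM in WT against 23670 and 24567 CPM in Eko mice. The median of the list was 0.06.

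Of 12 other kinases known from muscle, 0 passed in edgeR's quasi-likelihood test and in limma-voom, 2 (Dmpk and Prkaa2) had an unadjusted p below 0.05 in edgeR, against 11.6% of all genes tested, and 1 (Dmpk) was among the 284 genes that passed in DESeq2. Dmpk, the myotonic dystrophy kinase, was at 231 and 232 CPM in WT against 187 and 174 CPM in Eko mice (log2 fold change -0.36, standard error 0.07). Camk2a was the highest per length and differed little, with a log2 fold change of -0.01. Tnni3k, a cardiac kinase, had the largest log2 fold change, -0.66 (standard error 0.61), at no more than 0.264 CPM in any library, and the median of the list was 0.01.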

How the data were processed

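The quadriceps of 4 male mice gave 1 polyA library each, made with a stranded kit and sequenced on an Illumina NovaSeq. The authors aligned the reads to mm10 (GRCm38) and estimated expected counts per gene with RSEM and an Ensembl annotation. The submitters' processing notes name STAR 2.6.1a. The deposited expected counts carry no normalization and were all whole numbers, so rounding changed none. The 9 genes and the lists of related genes were chosen with earlier results of these data known.

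Genotypes were compared in R 4.3.3 with edgeR 4.0.16 (quasi-likelihood test, TMM normalization, default filter on low counts, Benjamini-Hochberg adjustment, threshold 0.05), with genotype as the sole term. Each standard error is the log2 fold change over the root of F, and fold changes carry a prior count of 0.125. A floor of 3 counts equalled 0.0352 to 0.0413 CPM and covers counting error only, since reads carry no molecular identifiers. Alternatives were DESeq2 1.42.0, limma-voom (limma 3.58.1), RLE and upper-quartile normalization, no filter, at least 1 CPM in 2 libraries, a replicate block and leaving out each mouse. The tests were tested on simulated data. Named are all 9 genes, in each list of related genes those past the threshold, the highest per length and the largest change, the nearest tested gene on each side of the 9 (given singly for Sbk2, Sbk3 and Alpk3), and the 3 genes most like Sbk2. Marker genes were summed by list, and those printed singly were chosen after their values were seen. Gene positions, exon lengths and overlaps are from GENCODE release M21 on GRCm38, which held 91.8% of the symbols once, and promoters from RefSeq on GRCm38.p6.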

Additional observations from a re-analysis of the deposited data

How the results depend on the processing

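Among the 9 kinase genes, 1 passed the threshold in the reported test. The number was 2 in DESeq2 and without the filter on low counts, 0 with at least 1 CPM in 2 libraries, and 1 to 2 with each mouse left out. Over all genes the number was 67, and it was 284 in DESeq2, 799 without the filter, 23 with at least 1 CPM in 2 libraries and 99 to 299 with each mouse left out. Sbk2 lay close under the threshold in the reported test, with RLE or upper-quartile normalization and in limma-voom. It also passed in DESeq2, without the filter and with the replicate block. It failed with at least 1 CPM in 2 libraries (log2 fold change -0.72). Mylk2 passed in DESeq2 (log2 fold change 0.36) and without the filter (0.35), as well as without WT replicate 2 (0.44), and the cause was not tested. With each mouse left out, the log2 fold change ran from -0.84 to -0.59 for Sbk2, 0.29 to 0.44 for Mylk2, 0.09 to 0.24 for Sbk1, -0.68 to 1.84 for Sbk3, -0.094 to 0.021 for Speg, -0.90 to -0.02 for Mylk3, 0.09 to 0.39 for Mylk4, -0.141 to 0.076 for Alpk2 and -0.09 to -0.03 for Alpk3. Sbk3, Speg and Alpk2 thus changed sign with a mouse left out, and the other 6 kept theirs under all 11 alternatives.

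The replicate numbers in the labels name different mice, and same-numbered mice deviated together only weakly (r = 0.0909 over 16120 genes). Adding that number as a replicate block called 186 genes, with Sbk2 at -0.72 as the sole kinase gene called. The counts of Sbk3 and Mylk3, 27 to 199 per library, limit what can be said of these genes.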
